A study of Homo sapiens with 6 samples.

Results

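The metallothioneins were represented on the arrays by 12 probe sets of 8 genes, MT1E, MT1F, MT1G, MT1H, MT1M, MT1X, MT2A and MT3, out of 54675 probe sets in all. Every probe set annotated to any of these symbols was taken, whatever its signal. None of the 12 was annotated to several symbols, but 9 carry the suffix _x_at, which marks probes that may also match other transcripts, so that their signals may be shared within the family. These 9 are described apart from the other 3, which carry the suffix _at. MT1E, MT1F, MT1G and MT1X had 2 probe sets each.

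The cells were HT-29, a human colorectal adenocarcinoma line, first cultured with fetal calf serum. Treated cells then received 10 µM 5-Aza (5-aza-2′-deoxycytidine, an inhibitor of DNA methyltransferases) for 72 hours without serum, and control cells received the water and acetate in which 5-Aza had been dissolved, with no statement in the sources used here of whether their medium held serum. Each group had 3 HGU133 Plus2.0 arrays, and the comparison asked which transcripts change when DNA methylation is lowered. The sources used here do not state that the arrays came from separate cultures, so a p-value reflects no more than how far these arrays differ among themselves.

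Metallothioneins are small, cysteine-rich proteins that bind zinc and copper and sequester cadmium. Their genes are induced by metals through the zinc-sensing factor MTF1, which binds short metal response elements in their promoters, and also by glucocorticoids and oxidative stress. MT2A and the MT1 genes are used in many tissues, the colon included, whereas MT3 is known mainly from the brain, and promoter methylation of MT1G has been described in several tumour types.

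In the RefSeq assembly GRCh38.p14 all 8 genes lay together on chromosome 16, in the order MT3, MT2A, MT1E, MT1M, MT1F, MT1G, MT1H and MT1X. The pseudogene MT1L lay between MT2A and MT1E. The promoter of MT1B, which is not among the 8, lay between MT1M and MT1F. Of the 8, the RefSeq promoter table held MT2A, MT1H and MT1X. Their 250 bases before the transcription start are shown because they carry both CpG dinucleotides and metal response elements. These are the features that the treatment and the known regulation of the family bear on. Capitals mark the core of the metal response element, TGCACNC or TGCGCNC, on either strand. The windows were chr16:56608334-56608583 for MT2A, chr16:56669564-56669813 for MT1H and chr16:56682220-56682469 for MT1X, all on the plus strand.
MT2A: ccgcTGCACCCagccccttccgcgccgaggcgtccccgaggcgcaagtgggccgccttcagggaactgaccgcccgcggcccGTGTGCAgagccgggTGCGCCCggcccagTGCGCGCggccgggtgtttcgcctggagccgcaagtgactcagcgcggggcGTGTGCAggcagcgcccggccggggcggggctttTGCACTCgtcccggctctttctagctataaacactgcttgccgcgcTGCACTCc
MT1H: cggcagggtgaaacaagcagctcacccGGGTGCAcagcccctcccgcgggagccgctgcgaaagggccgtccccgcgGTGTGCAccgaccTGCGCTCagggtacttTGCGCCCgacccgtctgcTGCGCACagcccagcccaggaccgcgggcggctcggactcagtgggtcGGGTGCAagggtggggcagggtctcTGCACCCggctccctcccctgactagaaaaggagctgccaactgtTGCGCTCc
MT1X: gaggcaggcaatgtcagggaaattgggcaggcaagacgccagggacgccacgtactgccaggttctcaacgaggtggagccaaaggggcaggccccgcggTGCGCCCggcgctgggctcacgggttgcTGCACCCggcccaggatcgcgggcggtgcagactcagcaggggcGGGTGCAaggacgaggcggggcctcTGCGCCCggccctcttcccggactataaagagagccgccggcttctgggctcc
The core occurred 7 times before MT2A, 8 times before MT1H and 4 times before MT1X. Of 35116 promoter windows of the same length, 24.8% held at least 1 core, 0.37% held as many as MT1X, 0.0313% as many as MT2A and 0.0171% as many as MT1H. CpG dinucleotides numbered 32 before MT2A and 22 before each of MT1H and MT1X, against a median of 11 over all windows. GC content was 73.2%, 70.4% and 70% before MT2A, MT1H and MT1X. A match to these letters is a description of the sequence and does not show that a factor was bound or that a CpG was methylated in these cells.

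Across the 12 probe sets no change after 5-Aza passed an adjusted p under 0.05 or the study's unadjusted 0.025. With limma, 0 of 12 were higher and 0 were lower at an adjusted p under 0.05, where 0% of the 54613 probe sets tested were called higher and 0% lower. Calls at an unadjusted p under 0.025 also numbered 0 of 12 in either direction, against 2.97% of all probe sets for higher and 1.05% for lower signals, and 0 of 12 passed with the threshold at 0.05, against 5.26% higher and 1.97% lower. A SAM-type statistic also called 0 of 12 at an adjusted p under 0.05, as 0% of all probe sets, and 0 of 12 at 0.025 unadjusted, against 2.35% higher and 0.886% lower. Its smallest unadjusted p among the 12 was 0.0471, for MT1G 210472_at. The log2 fold change was positive for 9 probe sets and negative for 3, and its median was 0.33, against 56.9% positive and a median of 0.06 over all probe sets. With each array centred on its median signal, 7 were positive and 5 negative. In 1 of 12 probe sets, for MT1F, the 3 treated signals all exceeded the 3 control signals, where 9.29% of all probe sets did so, and in 0 of 12 every treated array lay below, where 5.22% did. The arrays measure pooled RNA, in which a larger share of cells using a gene cannot be told apart from more RNA per cell.

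MT2A, the main isoform in many human tissues, was measured by 212185_x_at. Its signals were 518.5, 399.5 and 405.2 on the treated arrays and 257.3, 563.4 and 201.9 on the control arrays. The treated arrays lay close together and above 2 of the controls, while control replicate 2 was the highest of all 6, so the groups overlapped. Treated cells had a mean of 441 ± 67.1 and control cells one of 341 ± 195 (SD, n = 3 each). The log2 fold change was 0.50 (SE 0.42, 95% interval -0.55 to 1.56, limma adjusted p = 0.843), and a two-sided exact permutation test over the arrays gave p = 0.4, with 0.1 the smallest value it can reach.

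**Figure D1:**
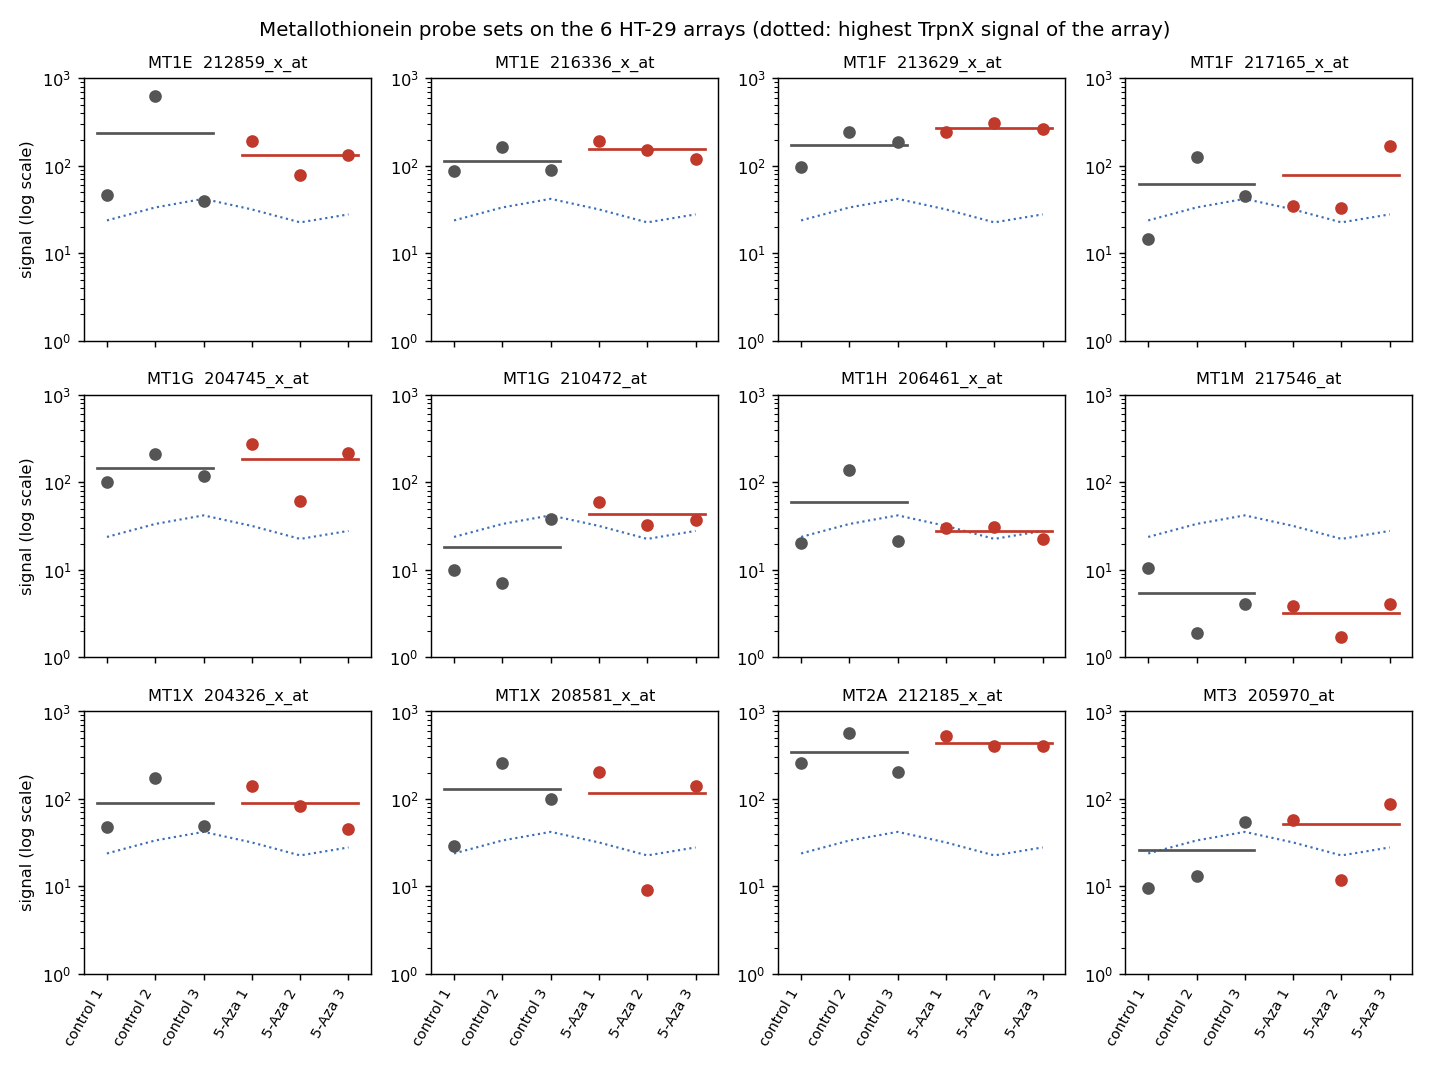
Signal of the 12 metallothionein probe sets on the 3 treated and 3 control arrays, on a log scale, with 1 point for each array (grey control, red treated), a horizontal line for the mean of each group and a dotted line for the highest TrpnX signal of each array. For the _x_at probe sets control replicate 2 lies above both other controls, and for MT1F 213629_x_at all 3 treated arrays lie above all 3 controls.

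The plot of the signals by array shows where the groups separate and where they do not. MT1F, a zinc-binding MT1 isoform, had the only probe set without overlap, 213629_x_at, at 245.5, 312.3 and 261.5 on treated and 96.9, 242.3 and 186.3 on control arrays. The lowest treated array exceeded control replicate 2 by a margin of 245.5 against 242.3, so the separation was narrow at that array. The means were 273 ± 34.9 and 175 ± 73.3 (SD, n = 3 each). The difference of the mean log2 signals was 0.73, or 1.66-fold (SE 0.37, 95% interval -0.21 to 1.66, limma adjusted p = 0.755). The exact permutation test gave p = 0.1, the smallest that 3 against 3 arrays allow. The groups overlapped after quantile normalization or median centring. The other MT1F probe set, 217165_x_at, read 34.8, 33.3 and 168.8 on treated and 14.6, 126.7 and 45.2 on control arrays. Its groups overlapped, with 1 high array in each, and the log2 fold change was 0.39 (SE 1.01).

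MT1G had different values from its 2 probe sets. For 210472_at, the signals were 59.5, 32.6 and 36.9 on treated and 9.9, 7 and 38.6 on control arrays. All 3 treated arrays were above the highest TrpnX signal of the same array, a bacterial transcript used as a measure of background, and 0 of the 3 controls were. The groups overlapped, since control replicate 3 exceeded 2 of the treated arrays. The fitted log2 fold change was 1.49 (SE 0.66, 95% interval -0.17 to 3.16, limma adjusted p = 0.723), but with the controls not above background its size depended on the constant added to the signals, and it was 0.86 with 16 in place of 1. The other MT1G probe set, 204745_x_at, read 273.7, 61.7 and 215.8 on treated and 101.6, 213.5 and 117.8 on control arrays. Here treated replicate 2 was the lowest of all 6 arrays, the groups overlapped and the log2 fold change was 0.17 (SE 0.65).

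MT1E, another MT1 isoform, had control signals that lay far apart. On 212859_x_at the treated arrays read 191.7, 78.6 and 134.2 and the control arrays 46, 627 and 39.9. Control replicate 2 lay far above all other arrays, and the other controls lay below every treated array. The log2 fold change was 0.26 with an interval of -2.65 to 3.18, wide enough to hold a large change in either direction. On the second MT1E probe set, 216336_x_at, the signals were 194.2, 152.8 and 120.7 on treated and 87.4, 163.6 and 89.4 on control arrays. Control replicate 2 was again the highest control, here below treated replicate 1, and the groups overlapped. The log2 fold change was 0.49 (SE 0.33, 95% interval -0.34 to 1.32).

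MT1X, an MT1 isoform, had negative and positive values. For 208581_x_at the treated arrays read 200.7, 9.2 and 139.1 and the control arrays 28.7, 259.9 and 100.4. Treated replicate 2 was far below the other treated arrays and under the background measure, and the log2 fold change was -0.48 (SE 1.41), the largest error of the family. For 204326_x_at the signals were 139.7, 83.6 and 45.9 on treated and 48.3, 175.8 and 48.4 on control arrays. The log2 fold change was 0.12 (SE 0.67), and the groups overlapped. This probe set is annotated to MT1X, but its target transcript is listed in the RefSeq table under the pseudogene MT1L, so it cannot be assigned to MT1X with certainty.

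MT1H, MT1M and MT3 were at or near background on some or all arrays. MT1H 206461_x_at read 30.4, 31.2 and 22.6 on treated and 20.1, 139.2 and 21.4 on control arrays, and passed the background measure on 1 array of each group. Its log2 fold change was -0.49 (SE 0.79), set by control replicate 2, the only array with a clear signal. MT1M 217546_at did not exceed the background measure on any of the 6 arrays, with signals of 1.7 to 4.1 on treated and 1.9 to 10.5 on control arrays, so its log2 fold change of -0.44 (SE 0.57) carries no level. MT3 205970_at, the brain isoform, read 57.8, 11.8 and 87 on treated and 9.5, 13 and 55.1 on control arrays. Both groups held low and high arrays, and the log2 fold change was 1.00 (SE 0.98, 95% interval -1.47 to 3.47), or 0.67 with 16 added in place of 1. In all, 5 of the 12 probe sets exceeded the background measure on all 6 arrays, 6 on some and 1 on none. The background measure was 22.6 to 31.8 on treated and 23.8 to 42 on control arrays.

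Among the controls, replicate 2 had the highest signals of most of the family. It was the highest control in 9 of 9 _x_at probe sets, where it was the highest control in 32.1% of all probe sets and in 29.1% of the 18076 probe sets within the signal range of the _x_at metallothioneins. Its signal over the mean of the other controls ranged from 1.71 for MT1F 213629_x_at to 14.6 for MT1E 212859_x_at, with a median of 3.64, and 6 of the 9 ratios reached 2, against 9.48% of all probe sets. All 3 _at probe sets lay under the background measure on control replicate 2, at 7 for MT1G, 1.9 for MT1M and 13 for MT3, so no direction is read from them there. Since the _x_at probe sets may share probes with several family members, they are not 9 independent measurements. On the first principal component of all probe sets, which held 23% of the variance, control replicate 2 lay at 149.9, the other controls at 3.23 and 56.5 and the treated arrays between -78.95 and -62.3. The cause of this difference was not tested.

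**Figure D2:**
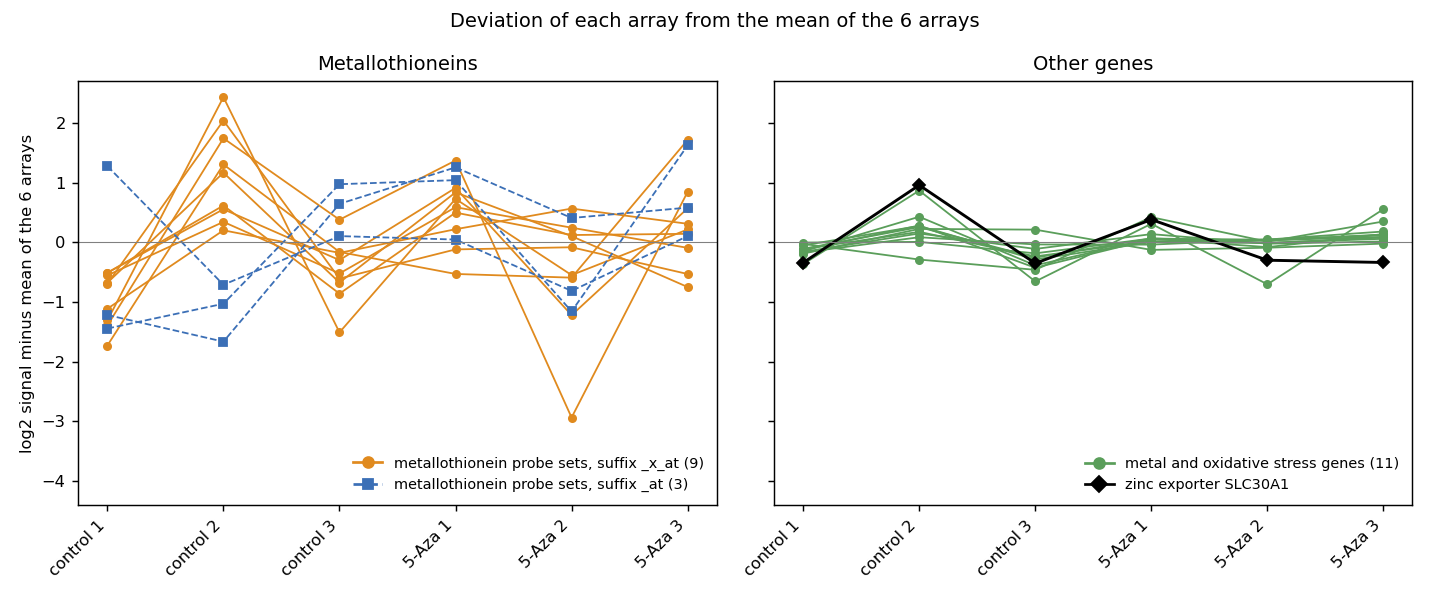
Deviation of each metallothionein probe set from its own mean over the 6 arrays, in log2 units, by array and joined by a line, with _x_at probe sets as orange circles and _at probe sets as blue squares (left), and the same for 11 genes of the metal and oxidative stress response (green) and SLC30A1 (black diamonds, right). The _x_at probe sets have a median of 1.16 on control replicate 2, -0.69 and -0.52 on the other controls, and 0.59, -0.08 and 0.21 on treated replicates 1, 2 and 3.

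The plot of deviations by array shows the spread among controls as well as the position of control replicate 2. The median SD of the log2 signals of the _x_at probe sets was 1.06 among the 3 controls and 0.64 among the treated arrays, against 0.39 and 0.33 over all probe sets. With control replicate 2 left out it was 0.15 over the other 2 controls, against 0.28 over all probe sets. The control SD exceeded the treated SD in 9 of the 12 probe sets, as it did in 58.5% of all probe sets.

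Without control replicate 2, a comparison of 3 arrays against 2, 11 of the 12 log2 fold changes were positive, with a median of 0.76, against 0.05 over all probe sets. MT1E 212859_x_at and MT2A were higher at an unadjusted p under 0.025, or 2 of 12 where 3.15% of all probe sets were, and 4 of 12 were higher at an unadjusted p under 0.05, against 5.41%. In 5 of 12, the 2 MT1E probe sets, MT1F 213629_x_at, MT1H and MT2A, every treated array lay above both controls, where 15.9% of all probe sets did. At an adjusted p under 0.05 there were 0 of 12, and the smallest limma adjusted p was 0.449, for MT2A at a log2 fold change of 0.94 (SE 0.22, 95% interval 0.34 to 1.53). MT1E 212859_x_at had 1.54, MT1F 213629_x_at 1.01, MT1E 216336_x_at 0.78 and MT1H 0.41. For MT1E 212859_x_at, control replicate 3 at 39.9 lay under the background measure of that array, 42, so the size of 1.54 is uncertain. The fitted value of MT1H changed sign, from -0.49 with all arrays, and that of MT1X 208581_x_at from -0.48 to 0.27. Without control replicate 2, MT1H passed the background measure on treated replicate 2 alone, so no direction is read from it. The choice of this array was made with its values in view, so these numbers show how far 1 array sets the result and do not replace the comparison of all 6.

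**Figure D3:**
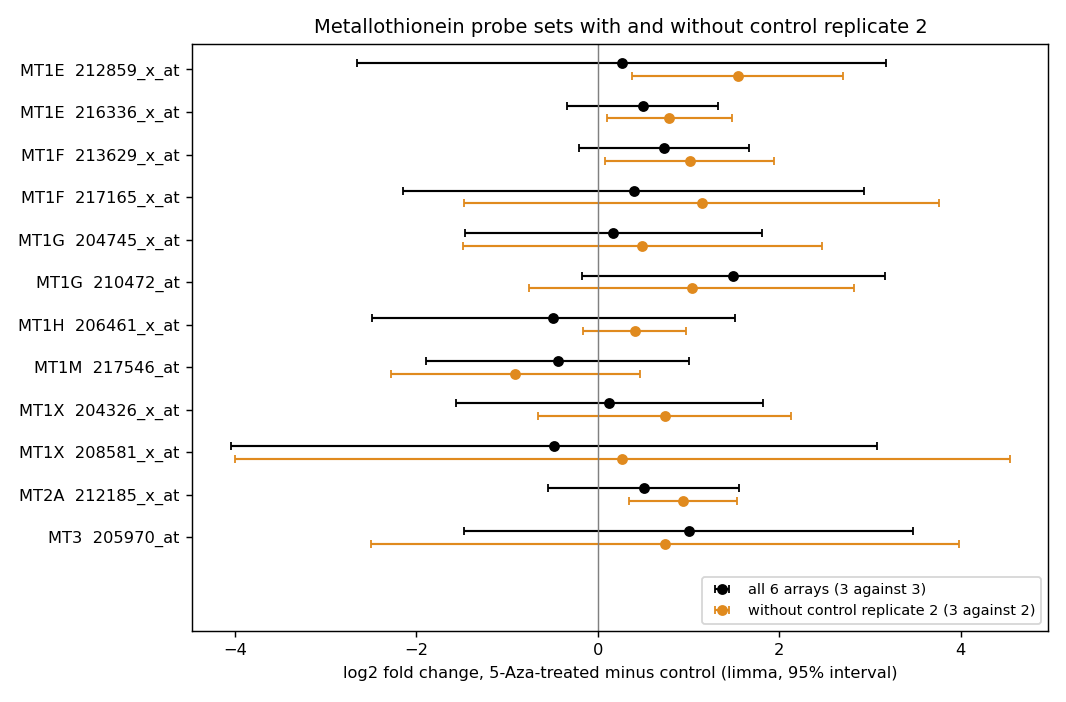
Log2 fold change of each metallothionein probe set, treated minus control, with limma 95% intervals, for all 6 arrays (black) and without control replicate 2 (orange). With all 6 arrays every interval includes 0, and without control replicate 2 the intervals of MT2A, both MT1E probe sets and MT1F 213629_x_at lie above 0.

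The plot of fold changes shows the 12 intervals with and without control replicate 2 side by side. Other metallothionein loci were measured by 2 probe sets. MT1HL1, an MT1H-like gene, had 132.3, 14.2 and 44.1 on treated and 101.5, 156.8 and 21.5 on control arrays with 211456_x_at, a log2 fold change of -0.66 (SE 1.08). MT4, known from squamous epithelium, had 5.3, 24.9 and 7.5 on treated and 8.9, 6 and 6.7 on control arrays, and passed the background measure on 1 of the 6. Neither probe set separated the groups.

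Genes that act with the metallothioneins were compared in the same fit. Of 24 zinc transporters, 0 passed at an unadjusted p under 0.025 in either direction and 0 at an unadjusted p under 0.05. In 2, SLC30A4 and SLC39A1, every treated array lay above the controls, with log2 fold changes of 0.44 and 0.39. In 1, SLC39A5, every treated array lay below, at -0.35. Of all probe sets, 9.29% were higher and 5.22% lower without overlap, shares that apply to the lists below too. The largest changes were those of SLC30A2, 0.91 (SE 0.88), and SLC39A2, 0.77 (SE 0.87), both near background. Of 12 genes of copper handling 0 passed at either threshold, the largest changes being SCO2 at -0.29 and ATOX1, the copper chaperone, at -0.24. Of 8 regulators of metallothionein genes 0 passed. MTF1 read 758, 646.8 and 830.6 on treated and 847.3, 748.3 and 880.3 on control arrays, a log2 fold change of -0.15 (SE 0.17). NR3C1, the glucocorticoid receptor, had 0.41 (SE 1.03), with 2 treated arrays and 1 control array above the background measure. USF2 had 0.26 (SE 0.28), while SP1 at -0.08 (SE 0.13) and KEAP1 at -0.11 (SE 0.13) had every treated array below the controls. Of 6 genes of the glucocorticoid response 0 passed, with DUSP1 at -0.39 and KLF9 at 0.30. Of 8 neighbours of the cluster 0 passed, with SLC12A3 at -1.28 (SE 0.71) and GNAO1 at -0.60 (SE 0.65). SLC12A3 was above the background measure on 0 of 3 treated and 1 of 3 control arrays. NUP93 at 0.21 (SE 0.15) had every treated array above the controls. None of the genes in these 5 lists passed at an unadjusted p under 0.05 in limma or at 0.025 with the SAM-type statistic, and none passed at an adjusted p under 0.05.

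Of 11 genes of the metal and oxidative stress response 0 passed at an unadjusted p under 0.025. At an unadjusted p under 0.05, 1 was higher, SLC7A11, where 5.26% of all probe sets were higher. SLC7A11, a cystine transporter, had 5122.9, 3854.9 and 4871.4 on treated and 3757.7, 3131.1 and 2778.9 on control arrays, without overlap, a log2 fold change of 0.52 (SE 0.20, limma adjusted p = 0.68). GCLM, a subunit of the enzyme of glutathione synthesis, had 0.18 (SE 0.22). DNAJB1, a heat shock protein, also lay above the controls on every treated array, at a log2 fold change of 0.12 (SE 0.14). Thus 2 of the 11 were higher without overlap, where 9.29% of all probe sets were. Control replicate 2 was the highest control in 10 of the 11, SLC7A11 being the exception, where it was so in 32.1% of all probe sets. The size was mostly small. Its signal over the mean of the other controls had a median of 1.27 over the 11, against 3.64 for the metallothionein _x_at probe sets. HMOX1, heme oxygenase 1, read 130.1, 63.9 and 154.4 on treated and 81.1, 191.8 and 66.1 on control arrays, and SLC30A1, a zinc exporter induced through MTF1, read 820.3, 511.4 and 497.9 on treated and 497, 1223.8 and 492.8 on control arrays. HMOX1 and SLC30A1 were named after their values were seen. Their signals on control replicate 2 were 2.61 and 2.47 times the mean of the other controls. Their log2 fold changes were 0.11 (SE 0.54) and -0.17 (SE 0.44). Most genes of their lists did not reach a ratio of 2 on that array. Of the 11 stress genes 1 did, HMOX1 itself, against 9.48% of all probe sets. Of the 24 zinc transporters 2 did, SLC30A1 and SLC39A2, the latter near background, and the median ratio of that list was 1.01. The ratio was 0.87 for MTF1, and 0 of 12 genes of copper handling reached 2.

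Outside the family, the genes whose profile over the 6 arrays lay nearest to the mean profile of the metallothionein probe sets were ASPH, MAP3K6, UNC13D, TNNT1 and NPTXR, with mean absolute differences of 0.0983, 0.117, 0.134, 0.136 and 0.152 log2 units among 21261 candidate probe sets. ASPH read 145.7, 81.5 and 120.8 on treated and 60.3, 142.3 and 88.6 on control arrays. It was lowest on control replicate 1 and among the highest on control replicate 2 and treated replicate 1, a likeness that follows from how it was chosen.

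The 9 markers of colon epithelium all had mean signals above the background measure, with a summed signal of 118748 to 129570 on treated and 113401 to 139672 on control arrays. Of the markers of other cells, 1 of 3 for leukocytes, 1 of 3 for endothelium, 2 of 5 for fibroblasts and 1 of 4 for neurons and astrocytes were above it. The summed signals were higher on every treated array for leukocytes (93.3 to 100.2 against 26.1 to 90.5), endothelium (223.4 to 265.6 against 133.1 to 177.6) and neurons and astrocytes (155.2 to 169.5 against 123.7 to 135.1), but not for fibroblasts (401.6 to 547.1 against 364.4 to 506.9). Among single markers, CEACAM5 of the colon epithelium was higher without overlap at an unadjusted p under 0.025, at 732.4, 850.7 and 925.9 on treated and 400.8, 411.2 and 469.4 on control arrays (log2 fold change 0.96, SE 0.17, limma adjusted p = 0.319). The 9 epithelial markers did not share a direction, with 4 positive and 5 negative log2 fold changes and a median of -0.02. KRT20 was also higher without overlap, at 0.35 (SE 0.16), and LGALS4 lower without overlap, at -0.26 (SE 0.14). Over all probe sets 9.29% were higher and 5.22% lower without overlap. The change furthest from 0 was that of CDX2, -1.32 (SE 0.78), whose groups overlapped. VWF of the endothelium was also higher without overlap at an unadjusted p under 0.025 (log2 fold change 1.95, SE 0.55, limma adjusted p = 0.579). It read 24.5, 68.9 and 72.2 on treated and 11.2, 20.4 and 7.7 on control arrays, where 0 of 3 controls were above the background measure. In the other marker lists no gene passed, and the fitted log2 fold changes furthest from 0 were 1.34 (SE 0.65) for CD3E and -0.21 (SE 1.22) for CD14, -2.23 (SE 1.06) for COL3A1 and 0.69 (SE 0.45) for DCN, and 0.94 (SE 0.46) for SYP and -0.52 (SE 0.85) for AQP4, each with at most 1 of 3 controls above the background measure. SNAP25 was at 101.5, 140.2 and 137 on treated and 100.8, 90 and 78.9 on control arrays, without overlap. The part of these in the metallothionein values was not tested. The 3′ minus 5′ difference of ACTB, a measure of RNA quality, was 0.64 to 0.80 log2 units on treated and 0.46 to 0.60 on control arrays, and 0.57 on control replicate 2. Median signals were 83.3 to 86.1 on treated and 71.8 to 76.9 on control arrays.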

How the data were processed

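Metallothionein transcripts were measured in 6 HT-29 samples, 3 treated with 10 µM 5-Aza for 72 hours and 3 controls, on HGU133 Plus2.0 arrays. The deposited table holds linear intensity values made by the authors with the affy package, per the submitters' notes, whose version and summary method are not given in the sources used here. Every array had a mean of 499.9 once the lowest and highest 2% of signals were left out. No depth applies to arrays, whose number limits the precision.

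Signals were transformed as log2(value + 1), and 54613 probe sets, without 62 control probe sets, were fitted with limma 3.58.1 in R 4.3.3 with the group as only term and Benjamini-Hochberg adjustment. The study's methods name SAM and the unadjusted threshold of 0.025. Of 54675 probe sets, 41097 have 1 annotated symbol, 1801 have several and 11777 have none. Other genes were represented by their brightest single-symbol probe set, _x_at probe sets only where no other existed. From each list, genes past 0.025 without overlap, or otherwise the 2 of largest change, were named, with the 5 genes of nearest profile (mean signal over 100). Genes without overlap in the lists of metal handling, regulators, stress and neighbours were added after their values were seen. So were MTF1, HMOX1, SLC30A1, SNAP25, CDX2, KRT20 and LGALS4. The background measure was the highest TrpnX signal on each array. Same-numbered arrays were not treated as pairs in the main fit. Their deviations correlated at -0.0117 to 0.00965 over all probe sets tested, which cannot show whether they were handled together. Promoters came from RefSeq (GRCh38.p14). The procedure was tested on simulated data with independent noise and no deviant array. That test does not cover an array such as control replicate 2. Members and lists were chosen with earlier results of these data known. Alternatives were 16 in place of 1 added, quantile normalization, median centring, a trend and robust fit, the SAM-type statistic, a filter on low values, control probe sets kept, the replicate block, each array left out, _x_at probe sets left out, single-symbol probe sets alone and the ratio of mean signals.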

Additional observations from a re-analysis of the deposited data

How the results depend on the processing

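Of the alternatives, none brought a metallothionein probe set past an adjusted p under 0.05. The trend and robust limma fit gave MT1F 213629_x_at an unadjusted p of 0.033. With the replicate number as a block (replicate block), 0 of 12 were called and the median log2 fold change was 0.33. With 1 array left out in turn, the number higher at an unadjusted p under 0.025 was 0 to 2. It was 2 without control replicate 2 and 1 without control replicate 3. The latter was MT1G 210472_at at 2.19, against 1.49 with all arrays, or 0.86 with all arrays and 16 added. The controls left for it, at 9.9 and 7, lay under the background measure. The number higher without overlap was 1 to 5, and the median log2 fold change was 0.02, without control replicate 1, to 0.76, without control replicate 2. Quantile normalization and median centring each left 0 probe sets higher without overlap in place of 1. Median centring moved the median of all probe sets to -0.12 and that of the family to 0.14. With _x_at probe sets left out, 0 were higher without overlap, 2 of 3 fold changes were positive and the median was 1.00.

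Signs turned for single probe sets. MT1E 212859_x_at ranged from -0.43 to 1.54 with an array left out and was -0.82 as a ratio of mean signals. MT1X 204326_x_at ranged from -0.26 to 0.74, and was -0.049 with quantile normalization, -0.062 with median centring and -0.018 as a ratio of means. MT1G 204745_x_at ranged from -0.24 to 0.82 and was -0.015 with median centring. With an array left out, MT1F 217165_x_at ranged from -0.37 to 1.14, MT1H from -0.96 to 0.41, MT1M from -0.91 to 0.082 and MT1X 208581_x_at from -1.30 to 0.87. The causes were not tested. The filter on low values kept 7 of 12 probe sets, and single-symbol probe sets alone kept all 12. The number of arrays, and signals at or near background for MT1H, MT1M, MT3 and the controls of MT1G 210472_at, limit what could be detected.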
